A study of Mus musculus with 4 samples.

Results

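The shallow spots of injured muscle at day 1 were those with fewer than 2000 transcripts counted. They were 513 of the 2667 capture spots (19.2%) of that section, and 10835 spots were measured in the 4 sections of the series. A transcript was counted once through its unique molecular identifier (UMI), and the members were chosen by the total UMIs of a spot and by nothing else. The other 2154 spots of the section, with 2000 UMIs or more, are called the deep spots. RNA was captured in place on cryosections of the tibial muscle of C57BL/6 mice with the genotype Nse-Bmp4, aged 6-8 weeks. All sections carried that genotype, in which the promoter of neuron specific enolase (Nse) drives a Bmp4 transgene, and such mice form bone inside muscle after injury. The day 0 section was uninjured, and the others were taken 1, 3 and 7 days after injury, made with cardiotoxin, a venom toxin that kills myofibres. There was 1 section per day, and how the mixing of 3 muscles per group that the labels give maps onto a section is not stated, so the spread between animals was not measured, no difference was tested and every interval covers counting error only.

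A capture spot lies under a small patch of tissue and collects the RNA of several cells, so its total depends on how many cells lie there, how much RNA each holds and how much of it reaches the surface. Adult myofibres are large multinucleated cells that hold most of the RNA of a muscle, dominated by contractile, glycolytic and mitochondrial transcripts. After a toxin injury dying fibres lose their contents, and neutrophils, monocytes and macrophages enter to clear them. Fewer cells, less RNA per cell and poorer capture of RNA cannot be told apart in these counts. Spot positions and tissue images were not used, and no spot is called a cell type here.

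The shallow spots held 513090 UMIs, which was 3.06% of the 16777832 UMIs of the section. Their totals ran from 98 to 1996 UMIs, with quartiles of 636 and 1357 and a median of 971. The deep spots had a median of 7471 UMIs, and their mean depth was 7.55-fold that of the shallow spots. These totals describe the choice of the members and are not a result. Just inside the limit, 18 spots with a median of 1966 UMIs had a median of 1069 genes with a UMI, and just outside it 22 spots with a median of 2048 UMIs had a median of 1039 genes. The other sections had few spots under the same limit, 17 of 2107 uninjured, 9 of 3029 on day 3 and 84 of 3032 on day 7, while their median depth was 12120 to 21029 UMIs per spot against 6322 at day 1. The sections shared 1823 to 2075 of the 2667 spot barcodes of day 1, since spot barcodes are array positions used on every capture area.

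The pooled RNA of the shallow spots was not a diluted copy of that of the deep spots. Among 2529 genes with a mean of at least 50 CPM (UMIs of a gene scaled to a common total per pool) over both pools, 867 genes (34.3%) were at least 1.5-fold higher in the shallow spots and 357 genes (14.1%) at least 1.5-fold lower. The median log2 ratio of shallow to deep CPM was 0.26, with quartiles of -0.30 and 0.82, and across these genes, which are not independent replicates, log2 CPM had a Pearson correlation of 0.846. The split leans on the scaling. With edgeR TMM factors every log2 ratio was 0.56 lower, the median was -0.30, 371 genes were higher and 952 were lower. A total that leaves out RNA of myofibres, mitochondria and haemoglobin gave 637 higher and 565 lower. The ratios given here are of CPM, and on the TMM scale each log2 value would be lower by that shift. The filter also bears on such counts, since 491 of the 2529 genes passed only through the shallow pool, with under 50 CPM in the deep pool, and 119 only through the deep pool, so that their direction was fixed by the filter. In the immune and platelet lists these were Ptprc, Cd53, Adgre1, Csf3r, Thbs1 and Ppbp among the genes with a higher level, and the counts of members that passed are a description only. Other lists held such genes as well, among them 4 immediate early and 2 adipocyte genes through the shallow pool. Through the deep pool they included 3 slow myofibre genes and 1 tendon gene. A gene not detected in the shallow pool could have stood at up to 5.85 CPM, the level of 3 UMIs.

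**Figure D1:**
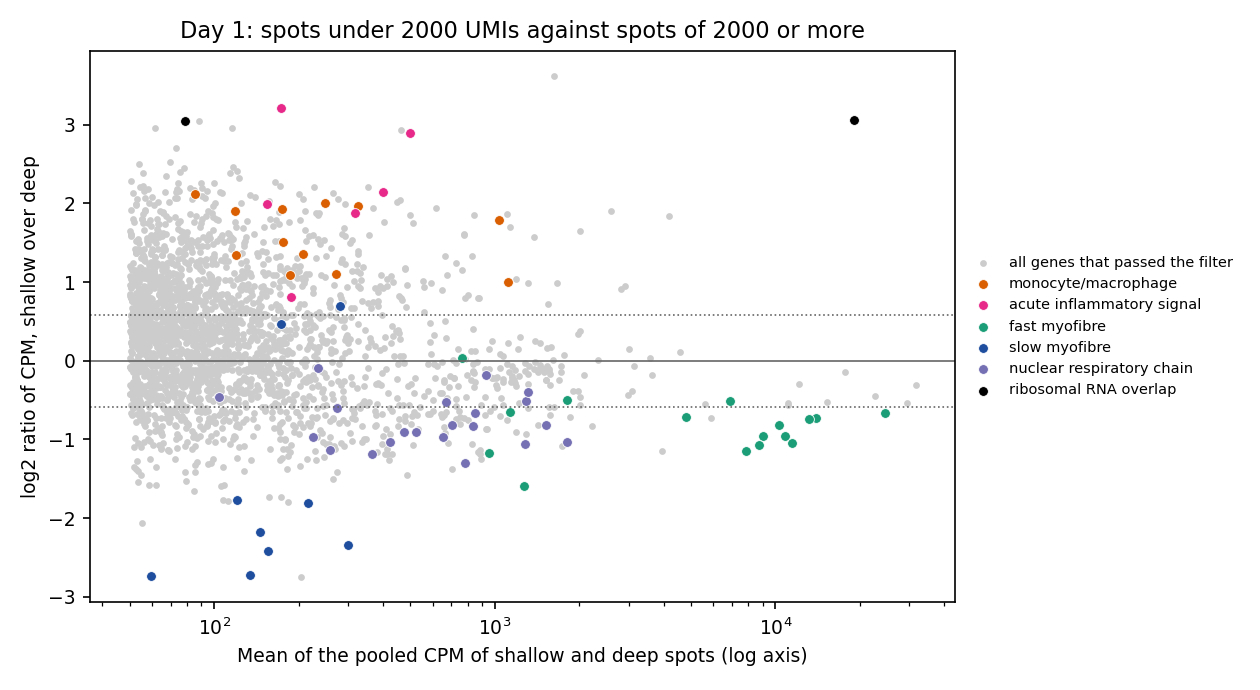
Each point is a gene of the day 1 section, with its mean pooled CPM on a log axis and the log2 ratio of CPM in spots under 2000 UMIs over spots of 2000 or more, and dotted lines mark 1.5-fold. The 12 monocyte/macrophage genes (orange) and 6 acute inflammatory genes (pink) that passed the filter all lie above the upper line, 13 of the 16 fast myofibre genes (green) lie below the lower line, and Gm42418 (black, right) stands apart at 3.06. Of all genes that passed, 34.3% are at least 1.5-fold higher and 14.1% at least 1.5-fold lower.

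RNA of leukocytes took a larger share of the shallow spots. All 8 genes of the leukocyte list passed the filter and all 8 were at least 1.5-fold higher, with a median log2 ratio of 1.79 beside 0.26 for all genes. By that measure 34.3% of all genes that passed were higher. Ptprc and Cd53 passed only through the shallow pool, so that their direction was fixed by the filter. The list summed to 2664 CPM in the shallow spots (95% interval 2525 to 2809) and 1018 CPM in the deep spots (1003 to 1034). Ptprc, which encodes the pan-leukocyte surface phosphatase CD45, was 4.25-fold higher in the shallow spots (3.10 to 5.72). Cd53, a leukocyte tetraspanin, was 5.49-fold higher (4.40 to 6.79), Laptm5, a lysosomal protein of blood cells, 3.85-fold and Coro1a, an actin regulator of leukocytes, 3.23-fold. The smallest differences were those of Cd52 at 1.58-fold and Tyrobp, an adaptor of activating receptors, at 1.60-fold.

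Monocyte and macrophage genes showed the same direction. Of 14 listed genes 12 passed the filter and all 12 were at least 1.5-fold higher in the shallow spots, with a median log2 ratio of 1.65 and a range of 1.01 to 2.12. Over all genes that passed, 34.3% were higher by that measure. Among the 12, Adgre1 passed only through the shallow pool, which fixed its direction. The list summed to 6026 CPM in the shallow spots (5816 to 6242) against 2185 CPM in the deep spots (2163 to 2208), a 2.76-fold difference. Adgre1, which encodes the macrophage antigen F4/80, was 4.34-fold higher, and Ccr2, the receptor that brings monocytes out of the blood, 4.01-fold. Lysosomal proteases were among the most abundant members, with Lgmn (legumain) at 1610 CPM in the shallow and 465 CPM in the deep spots and Ctss (cathepsin S) at 518 and 132 CPM. Ctsb, a cathepsin outside the lists that ranked 24th by level in the shallow spots and was picked after its values were seen, was at 4110 and 1097 CPM. Lyz2 (lysozyme) was 2.01-fold higher, at 1493 against 743 CPM, and the complement genes C1qa, C1qb and C1qc were 2.55-fold, 2.15-fold and 2.84-fold higher. Mrc1, the mannose receptor of resident and repair macrophages, was 3.81-fold higher.

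Genes of the acute inflammatory signal had a larger difference than the leukocyte markers. The 6 of 16 listed genes that passed the filter were all at least 1.5-fold higher, as were 34.3% of all genes that passed. Their median log2 ratio was 2.07. Among the 6, Thbs1 passed only through the shallow pool, which fixed its direction, and listed genes that did not pass are not in the median. The whole list summed to 2994 CPM in the shallow spots against 688 CPM in the deep spots, a 4.35-fold difference (4.12 to 4.59). Thbs1 (thrombospondin 1, a matrix glycoprotein of platelets, macrophages and stroma) was 9.31-fold higher (7.75 to 11.1), at 312 against 33.5 CPM. Spp1 (osteopontin) was 7.44-fold higher, at 879 against 118 CPM. The monocyte chemokines Ccl7 and Ccl2 were 4.41-fold and 3.67-fold higher, and Chil3, a chitinase-like product of myeloid cells, 3.98-fold. Timp1, an inhibitor of matrix proteases, had the smallest ratio of the 6 at 1.76-fold. Il6, Ptgs2, Osm and Cxcl2 each had 2 UMIs or fewer in all shallow spots together, so their levels there were not measured at this depth.

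The neutrophil list rested on few counts, 247 UMIs in the shallow pool. Of its 12 genes 3 passed the filter and all 3 were at least 1.5-fold higher, as were 34.3% of all genes that passed. Csf3r (the receptor of granulocyte colony stimulating factor) was at 4.78-fold, S100a9 at 2.33-fold and S100a8, its partner in calprotectin, at 1.76-fold. Csf3r passed only through the shallow pool, which fixed its direction. Ly6g, Camp and Ngp, which mark mature or maturing neutrophils, had 0 UMIs in the shallow spots and at most 1 UMI in the deep spots. The lymphocyte list had 20 UMIs in the shallow pool, 16 of them from Ighm, and none of its 10 genes passed the filter. The T cell receptor genes Cd3d, Cd3e and Cd3g had 0 UMIs there, where a level of up to 5.85 CPM each could have gone undetected.

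A pair of platelet genes stood high as well. Ppbp, a chemokine stored in platelet granules, was 8.26-fold higher (6.38 to 10.6), at 158 against 19.1 CPM, and Pf4, the platelet chemokine that macrophages can also express, was 3.25-fold higher, at 1737 against 534 CPM. Ppbp passed the filter only through the shallow pool, which fixed its direction. The megakaryocyte surface genes Gp9 and Gp1bb had 0 UMIs in the shallow spots and Itga2b had 2. Nearly all of the 9021 platelet list UMIs of the deep spots came from Pf4 and Ppbp. The surface genes were thus near the floor in both groups, and their levels could not be compared. Haemoglobin genes did not follow the platelet genes. Of the red cell genes that passed the filter, Hbb-bs was at 244 CPM in the shallow and 388 CPM in the deep spots, Hba-a1 at 80 and 155 CPM, and Hba-a2 at 154 and 125 CPM.

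Myofibre RNA took a smaller share of the shallow spots, although it remained the largest listed group after mitochondrially encoded RNA. The 16 fast myofibre genes summed to 91914 CPM, or 9.19% of the UMIs, against 163024 CPM, or 16.3%, in the deep spots. Of them 13 were at least 1.5-fold lower and none was higher by that measure, with a median log2 ratio of -0.78, while 14.1% of all genes that passed were lower. Acta1, the skeletal muscle actin, was at 18919 CPM in the shallow and 30104 CPM in the deep spots, and Myh4, the myosin heavy chain of IIB fibres, at 9899 and 16528 CPM. Tcap, which caps titin at the Z-disc, differed most in the list, 3.01-fold lower (2.70 to 3.37). Myh1, the IIX myosin, was at 774 and 756 CPM, and Actn3 and Pvalb were 1.41-fold and 1.43-fold lower, short of the 1.5-fold limit.

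Genes of the slow fibre list were further apart than fast fibre genes, and that list also holds Myh2, the myosin of fast IIA fibres. Of the 9 genes of the slow list 7 were at least 1.5-fold lower in the shallow spots, with a median of -2.18. By that measure 14.1% of all genes that passed were lower. Tnni1, Myh7 and Myl2 passed the filter only through the deep pool, so that their direction was fixed by it. Myh7, the slow myosin heavy chain, was 6.63-fold lower (4.19 to 11.2), on 18 UMIs in all shallow spots. Tnni1, the slow troponin I, was 6.65-fold lower on 8 UMIs, Myl2 5.37-fold and Myl3, the other slow myosin light chain, 5.06-fold. Tpm3 was higher by 1.61-fold and Atp2a2 was at 201 against 146 CPM, and both genes are also expressed outside slow fibres. The tendon list moved with them, since Thbs4 (thrombospondin 4) was 6.75-fold lower (4.63 to 10.2) and Fmod (fibromodulin), which passed only through the deep pool, 4.16-fold lower. The defining tendon genes Tnmd and Mkx had 0 UMIs in the shallow spots, where a level of up to 5.85 CPM could have gone undetected. Both lists had their highest CPM in the deepest spots of the section, so their ratios depend on what the deep group holds.

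Energy metabolism genes were lower with the muscle genes. Over all genes that passed, 14.1% were at least 1.5-fold lower and 34.3% higher. Of 11 glycolytic genes 7 were at least 1.5-fold lower and none higher, with a median of -0.73. Gapdh was at 2464 against 5439 CPM, Pgam2, the muscle phosphoglycerate mutase, at 542 against 1229 CPM, and Pgk1 at 606 against 637 CPM. Of 21 nuclear genes of the respiratory chain 15 were at least 1.5-fold lower, with a median of -0.83. The muscle isoform Cox8b was 2.45-fold lower and Cox6a2 2.04-fold lower, whereas Sdha of complex II was at 226 and 241 CPM. The mitochondrially encoded genes differed less, with none of the 12 that passed beyond 1.5-fold in either direction and a median of -0.31. Their sum was 136563 CPM in the shallow spots and 178952 CPM in the deep spots. The share of mitochondrially encoded RNA was thus not higher in the shallow spots. It was less reduced than that of fast myofibre genes, with log2 ratios of the sums of -0.39 and -0.83. Whether cells there were damaged was not tested.

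Ribosomal protein genes were nearly level. The 34 genes summed to 43922 CPM in the shallow and 45463 CPM in the deep spots, their median log2 ratio was -0.095, and only Rps2 passed 1.5-fold, at 1041 against 1579 CPM. Relative to the median of all genes, 0.26, they were therefore lower. Long muscle transcripts were mixed, and Macf1, a cytoskeletal linker also made outside muscle, was the only one of them past 1.5-fold higher, at 2.79-fold. Ttn (titin) was at 3159 against 2853 CPM and Xirp2 at 889 against 814 CPM, while Ank1 and Ryr1 were 2.91-fold and 1.57-fold lower.

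The gene with the most UMIs in the shallow spots was Gm42418, whose locus in the mouse genome overlaps ribosomal RNA sequence. It stood at 34150 CPM in the shallow spots (33646 to 34659), or 3.42% of their UMIs, against 4090 CPM or 0.409% in the deep spots (8.35-fold). AY036118, which overlaps the same kind of sequence, was 8.30-fold higher, at 140 against 16.9 CPM, and it passed the filter only through the shallow pool. The largest ratio among all genes that passed was that of Lars2, the mitochondrial leucyl-tRNA synthetase, at 3013 against 245 CPM (12.3-fold, 11.6 to 13.1). RNA that stays in the nucleus was also higher, with Malat1 at 1167 against 387 CPM and Neat1 at 787 against 397 CPM, and the other 4 genes of that list did not pass the filter.

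In UMIs per spot, rather than as CPM, almost everything was lower in the shallow spots. Only 8 of the 2529 genes had a mean per spot that was no lower, namely Lars2, Thbs1, Gm42418, AY036118, Ppbp, Arg1, Cyp2e1 and Scd1. They were also the 8 genes with the highest ratio of CPM, because CPM and means per spot differ by a constant factor. Among them only Lars2, Thbs1 and Gm42418 had an interval of that ratio wholly above the 7.55-fold difference in mean depth. Thbs1, AY036118, Ppbp, Arg1 and Cyp2e1 passed the filter only through the shallow pool. Gm42418 gave a median of 29 UMIs per shallow spot, with quartiles of 17 and 45, and a median of 28 per deep spot, with quartiles of 20 and 39. Its count per spot hardly followed the total at all. Across the 7 depth bins of day 1, from spots under 500 UMIs to spots of 16000 or more, its mean was 29.9, 37.8, 32.7, 32.4, 29.2, 31.7 and 36.5 UMIs. Spearman's rho between its UMIs and the total over all 2667 spots was 0.048, beside 0.909 for Acta1 and 0.467 for Lyz2. As a description over spots of 1 library that share its depth, it carries no p-value. For Gm42418 at day 1, then, a high CPM went with a small total and not with more UMIs of the gene.

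**Figure D2:**
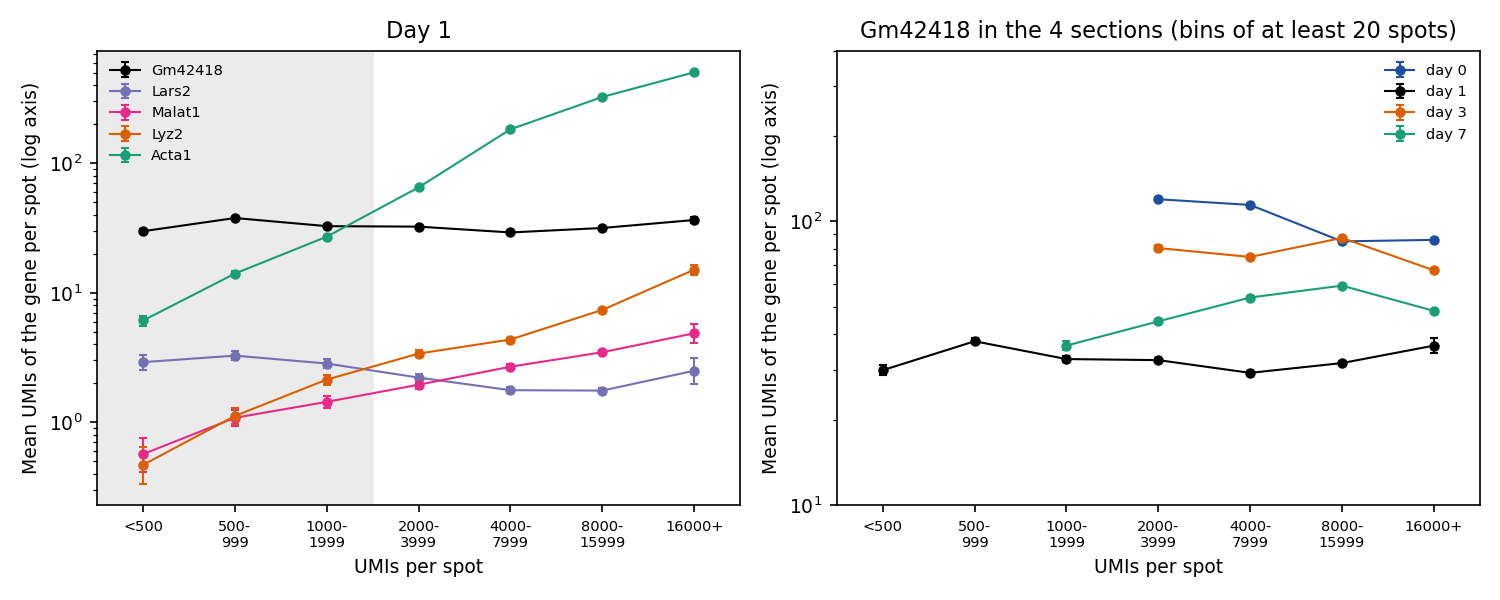
Mean UMIs per spot of 5 genes at day 1 (left) and of Gm42418 in the 4 sections (right) on log axes, by the total UMIs of the spot, with 95% Poisson intervals and, at left, the shallow spots shaded. At day 1 Acta1 climbs from 6.11 to 504 UMIs per spot across the bins, while Gm42418 stays between 29.2 and 37.8 and Lars2 between 1.76 and 3.27.

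The leukocyte lists did follow the total, but less steeply than muscle. A shallow spot held on average 6.03 UMIs of monocyte/macrophage genes and a deep spot 16.5, a 2.74-fold difference. For the leukocyte list the means were 2.66 and 7.69, and for the acute inflammatory list 2.99 and 5.19, a 1.73-fold difference. Fast myofibre genes gave 91.9 UMIs per shallow spot and 1231 per deep spot, a 13.4-fold difference beside the 7.55-fold difference in total. The sums of these immune lists were thus higher in the shallow spots as a share of what was captured and lower per spot, although single genes such as Thbs1, at 0.312 and 0.253 UMIs per spot, were no lower per spot. In spots from 1000 to below 2000 UMIs and in those from 8000 to below 16000, the acute inflammatory list had 4.43 and 5.37 UMIs per spot while fast myofibre genes had 132 and 1762.

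The levels changed gradually over depth rather than at the 2000 UMI limit. Monocyte/macrophage genes stood at 4974, 5781 and 6219 CPM in spots under 500, from 500 to below 1000 and from 1000 to below 2000 UMIs. They were at 4482 CPM in spots from 2000 to below 4000 UMIs and at 2243, 1901 and 1973 CPM in the 3 deeper bins. The change thus lay mostly between 1000 and 8000 UMIs, and within the shallow spots the list was not highest where depth was lowest. Fast myofibre genes stood at 84177, 89667 and 93523 CPM in the shallow bins, 114201 CPM in the bin above the limit, then 166092, 169478 and, in the 30 spots of 16000 or more, 118257 CPM. The ribosomal RNA overlap genes were lower in each deeper bin, from 85018 CPM under 500 UMIs to 2054 CPM at 16000 or more.

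Slow myofibre genes separated differently. They were between 666 and 1252 CPM in the 5 bins below 8000 UMIs, then at 2594 and 7827 CPM. Against spots of 2000 to below 4000 UMIs alone the shallow spots had a log2 ratio of 0.055 for that list in place of -1.23, so the low slow fibre level was shared with most spots of moderate depth. In the same comparison monocyte/macrophage genes were still higher (0.43) and fast myofibre genes lower (-0.31), and 163 genes were at least 1.5-fold higher and 128 lower.

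**Figure D3:**
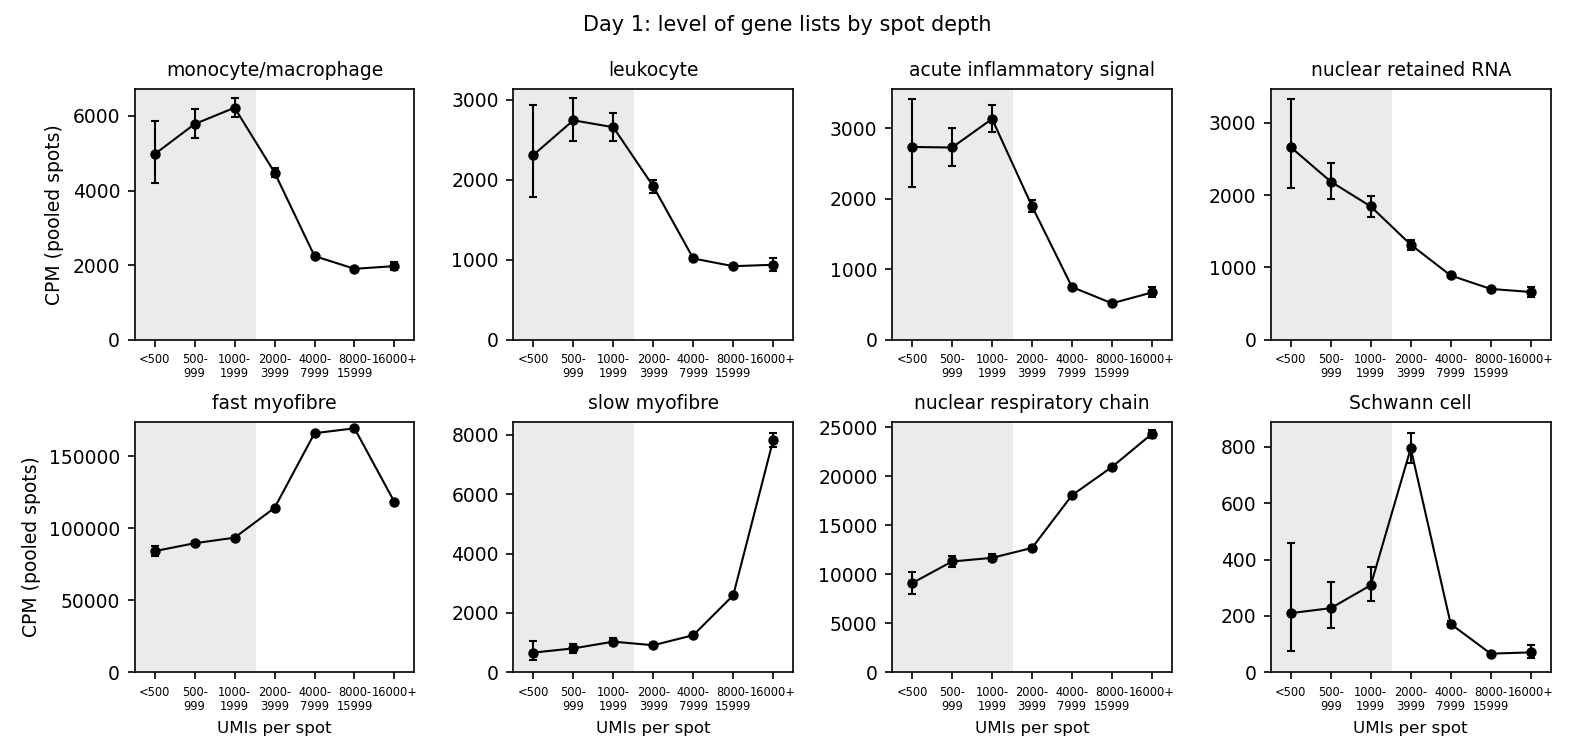
Pooled CPM of 8 gene lists at day 1 by the total UMIs of the spot, with 95% binomial intervals and the shallow spots shaded. The immune lists decline between 1000 and 8000 UMIs, slow myofibre RNA is at 2594 and 7827 CPM in the last bins, and Schwann cell RNA is highest at 795 CPM in the bin just above the limit, so that its higher level in shallow than in all deep spots turns to a lower one against that bin alone.

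Fibroblast, endothelial and Schwann cell genes were higher in the shallow spots than in all deep spots, but not than in the spots just above the limit, whereas the smooth muscle list was higher against both, with log2 ratios of 0.79 and 0.25. The fibroblast list summed to 2791 against 1527 CPM, and 3 of the 6 genes that passed were at least 1.5-fold higher, Gsn (gelsolin) at 2.51-fold, Col1a1 at 2.28-fold and Col1a2 at 1.60-fold. Over all genes that passed the share was 34.3%, and the list had a median log2 ratio of 0.54 beside 0.26 for all genes. Dcn (decorin), a broad fibroblast marker, was at 142 and 147 CPM. The endothelial list summed to 2204 against 1190 CPM, of which Fabp4, a fatty acid carrier of capillaries and fat cells, gave 1744 and 879 CPM. Pecam1 was 1.70-fold higher and Acta2, the smooth muscle actin, 2.34-fold. Against spots of 2000 to below 4000 UMIs the log2 ratio of the fibroblast list was -0.13 in place of 0.87, that of the endothelial list -0.17 in place of 0.89 and that of the Schwann cell list -1.50 in place of 0.92. With each spot given equal weight, the log2 ratio against all deep spots was 0.0021 for the Schwann cell list and 0.28 for the smooth muscle list.

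Fat cell genes were unevenly represented. Cidec, a lipid droplet protein, was 5.74-fold higher in the shallow spots, Lipe, the hormone sensitive lipase, 5.46-fold, Adipoq (adiponectin) 4.63-fold and Cfd (adipsin) 3.40-fold. These pooled folds were not those of a typical spot, since Cidec had a UMI in 6.82% of the shallow and 6.55% of the deep spots, and at 500 UMIs per spot the median share of the list was 0.050% in shallow and 0.090% in deep spots. Scd1, a fatty acid desaturase, was at 817 against 107 CPM and Cyp2e1, a cytochrome P450, at 109 against 14.0 CPM. Cidec, Lipe and Cyp2e1 had under 50 CPM in the deep pool and passed the filter only through the shallow pool, which fixed their direction. Car3, which slow muscle also expresses, was at 667 against 914 CPM and pulled the sum of the list to 1758 against 1265 CPM, a log2 ratio of 0.47 that became -0.085 with TMM factors and -0.42 against spots of 2000 to below 4000 UMIs. Per spot, Scd1 gave 0.817 UMIs in shallow and 0.809 in deep spots, and its mean was highest at 2.03 UMIs in the bin just above the limit. Arg1, the arginase of repair macrophages, gave 0.205 and 0.198 UMIs per spot.

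Early response genes were mostly higher and small heat shock proteins lower. Of the 9 immediate early genes that passed, 6 were at least 1.5-fold higher, with Fos at 3.15-fold, Zfp36, which destabilises cytokine messages, at 2.96-fold and Junb at 2.09-fold. By that measure 34.3% of all genes were higher. Of the 9, 4 passed only through the shallow pool and 1 only through the deep pool, which fixed their direction. The summed list had a log2 ratio of 0.70, which became 0.14 with TMM factors. Nr4a1 was 1.51-fold lower on 22 UMIs, with an interval of 0.995 to 2.43. Among 10 heat shock genes the muscle chaperones Hspb7, Hspb6 and Hspb1 were 2.60-fold, 2.27-fold and 2.24-fold lower, Hsp90aa1 was 1.80-fold higher and Hspa8 was at 1618 and 1600 CPM. Of the hypoxia and metal stress genes Hif1a was 2.93-fold and Hmox1, the haem oxygenase, 2.41-fold higher, while Mt1 and Mt2, the metallothioneins, were at 2670 against 3491 and at 1631 against 1804 CPM. Cell cycle genes were near the floor, with 201 UMIs in the shallow pool, and Pcna alone passed the filter at 166 against 108 CPM. Myod1, the myoblast factor, was at 51 and 52 CPM. Pax7, which marks satellite cells, had 0 UMIs in the shallow spots, where a level of up to 5.85 CPM could have gone undetected.

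To compare spots at equal depth, 500 UMIs were drawn at random, 20 times, from every spot that had as many, which left out 81 shallow spots and no deep spot. The thinned shallow spots had a median of 337 genes (quartiles 311 and 360) and the deep spots 294 (270 and 323). Without thinning the medians were 564 and 2056 genes. Per UMI, shallow spots thus held more genes, and leaving out the ribosomal RNA overlap genes and Lars2 gave medians of 335 and 294.

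The higher immune share was spread over most of the shallow spots. The median share of monocyte/macrophage genes was 0.505% of a shallow spot's UMIs (quartiles 0.260% and 0.910%) and 0.160% of a deep spot's (0.080% and 0.298%). Of 432 shallow spots 359 (83.1%) lay above the median of the deep spots. For the acute inflammatory list this held for 350 spots (81.0%) and for the ribosomal RNA overlap genes for 420 (97.2%). Fast myofibre genes made up a median of 8.10% of a shallow spot and 15.9% of a deep spot, and 31 shallow spots (7.18%) were above the deep median. Both conditions together, more macrophage and less fast myofibre RNA than the deep medians, were met by 339 of the 432 shallow spots (78.5%) and 694 of the 2154 deep spots (32.2%), and 11 shallow spots (2.55%) had the opposite pattern.

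**Figure D4:**
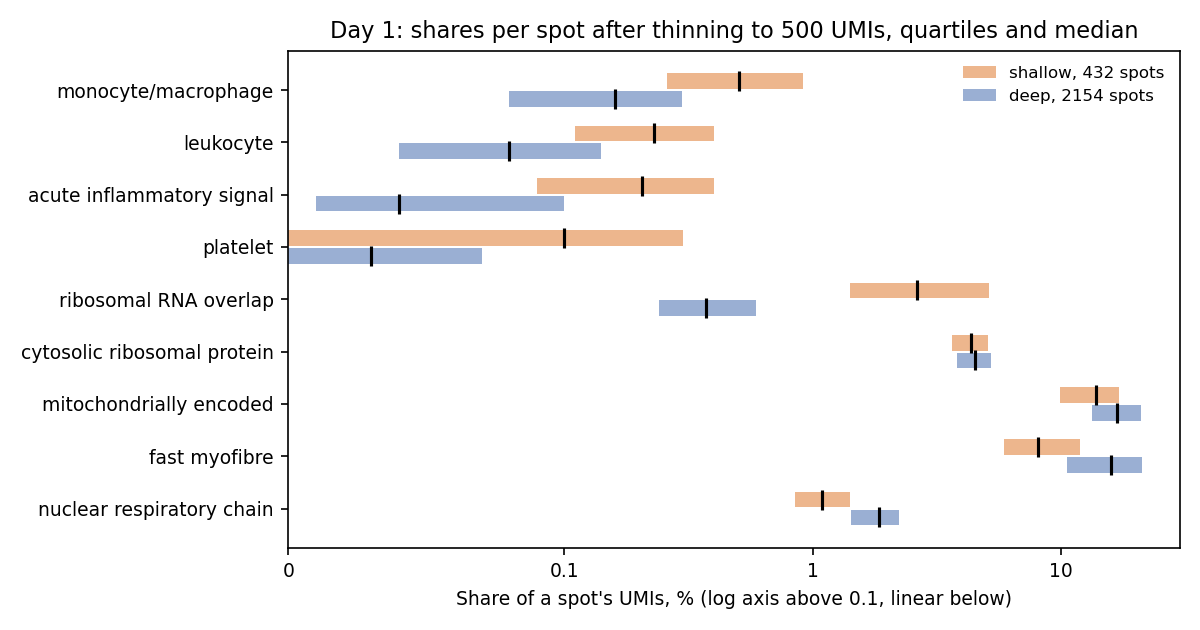
Share of a spot's UMIs taken by 9 gene lists at day 1 after thinning to 500 UMIs, with bars from the lower to the upper quartile, black ticks at the median and an axis that is logarithmic above 0.1%. The shallow spots (orange) lie to the right of the deep spots (blue) for the immune lists and ribosomal RNA overlap genes, to the left for fast myofibre and nuclear respiratory chain genes, and close to them for ribosomal protein genes, with medians of 4.34% and 4.49%.

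The shallow spots also varied among themselves. Across the 432 thinned spots the share of monocyte/macrophage genes had a Spearman's rho of -0.41 with that of fast myofibre genes (range over draws -0.46 to -0.35) and 0.40 with that of acute inflammatory genes, where the deep spots had -0.35 and 0.30. Its rho was -0.28 with the fibroblast list, where the deep spots had -0.0030, and -0.080 with the ribosomal RNA overlap genes, where they had 0.057. The share of fast myofibre genes had a rho of 0.36 with that of mitochondrially encoded genes in the shallow spots and 0.14 in the deep spots. These coefficients describe spots of 1 section that share a library and whose shares sum to a fixed total, and the difference between the 2 groups of spots was not tested.

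The same lists were read in the other sections. Since few of their spots were under 2000 UMIs, the least deep 19.2% of spots of each section was set against its other spots, and these spots reached 11022, 8741 and 6255 UMIs on days 0, 3 and 7, totals that at day 1 belong to the deep spots. Ribosomal RNA overlap genes were higher in the least deep spots of all 4 sections, with log2 ratios of 2.35, 3.06, 1.83 and 1.87 at days 0, 1, 3 and 7. Lars2 had 1.97, 3.62, 1.60 and 1.67, and Malat1 had 1.39, 1.59, 0.96 and 0.95. Gm42418 per spot had bin means, in spots of 2000 UMIs or more, of 85.0 to 119.8 on day 0, 67.2 to 87.5 on day 3 and 44.4 to 59.4 on day 7, and a rho with the total of 0.018, -0.22 and 0.022. Below 2000 UMIs its mean on day 7 was lower, at 36.5 in 72 spots from 1000 UMIs up and 22.9 in 10 spots from 500 to below 1000. From 1000 to below 2000 UMIs it was 80.0 in 15 spots of day 0 and 76.8 in 8 spots of day 3. Below 1000 UMIs those 2 days had at most 1 spot in a bin. The lipid genes Scd1 (1.86, 2.93, 2.15 and 1.08) and Cidec (2.15, 2.52, 2.35 and 1.41) were likewise higher in the least deep spots at each day.

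The immune and muscle differences were not shared by all days. Monocyte/macrophage genes had log2 ratios of 0.37, 1.46, -1.01 and -0.34 at days 0, 1, 3 and 7. Acute inflammatory genes had 0.027, 2.12, -0.57 and -0.23, and platelet genes -0.27, 1.78, -0.48 and -0.29. Thbs1 was 9.31-fold higher at day 1 and its log2 ratios on days 0, 3 and 7 were 0.16, -0.90 and -0.43. Fast myofibre genes had -0.029, -0.83, 0.98 and 0.16, and tendon genes -0.097, -2.39, -0.17 and -0.24. The neutrophil list had 0.91, 1.38, 0.15 and 0.10. Its intervals of counting error included 0 at day 3 (-0.010 to 0.30) and day 7 (-0.30 to 0.48), so its direction there was not determined. With 1 section per day the difference between days was not tested, and day, section and library cannot be told apart.

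**Figure D5:**
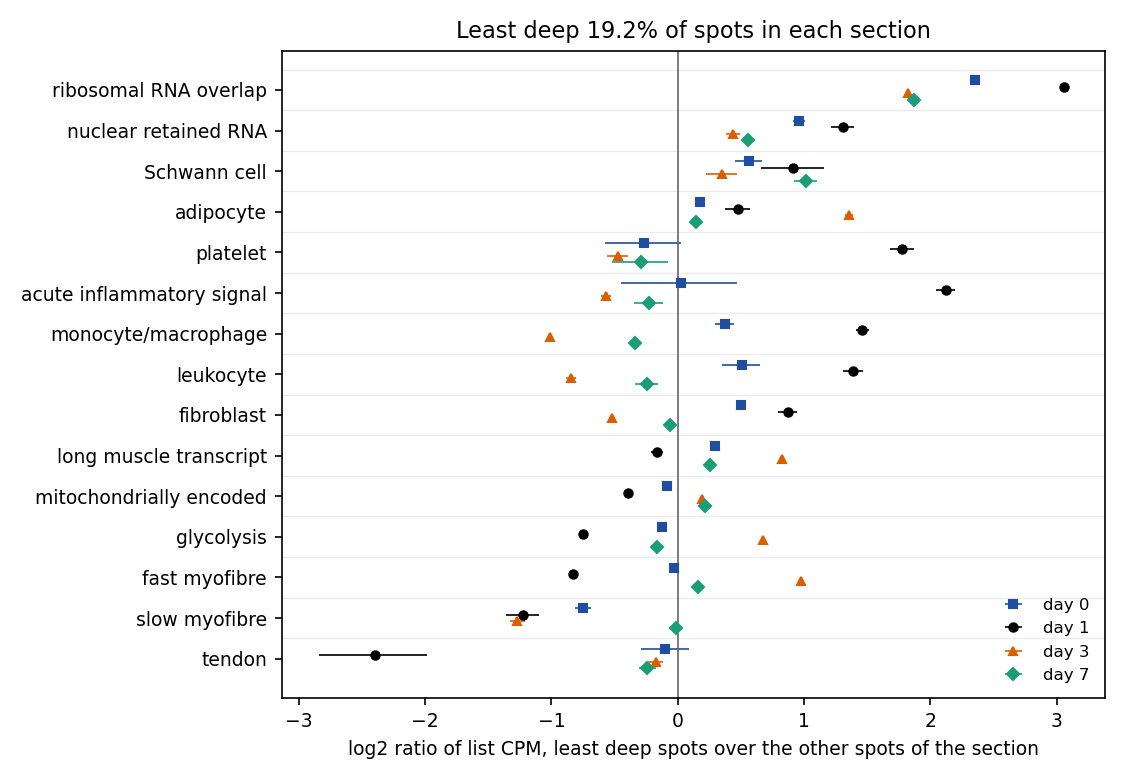
Log2 ratio of summed CPM of 15 gene lists in the least deep 19.2% of spots over the other spots of the same section, with 95% intervals of counting error, at day 0 (squares), day 1 (circles), day 3 (triangles) and day 7 (diamonds). Ribosomal RNA overlap and nuclear retained genes lie right of 0 at all 4 days, while leukocyte and monocyte/macrophage lists lie right of 0 at day 1 and left at days 3 and 7, and a total that leaves out RNA of myofibres, mitochondria and haemoglobin turned the sign of 4 of the small ratios plotted (acute inflammatory at day 0, fibroblast and slow myofibre at day 7, tendon at day 3).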

How the data were processed

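Each section had 1 deposited table of raw UMI counts over 32285 genes, which the authors produced with the array maker's pipeline. The file headers name Space Ranger 1.2.0 and the submitters' processing notes Space Ranger and mm10, while the label and the methods name other software versions. The label's protocol also mentions down-sampling of reads across samples, and the section totals differed. The methods state that spots over tissue were kept by image, and all deposited spots were used. A spot can hold several cells, so no doublet caller and no deconvolution was run. Groups were days 0, 1, 3 and 7 with 1 section each, of 16777832 to 56113066 UMIs.

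UMIs were summed over shallow and over deep spots of day 1 and scaled to CPM, with exact Poisson intervals at 95%. Ratios have exact conditional binomial (Clopper-Pearson) intervals, and list levels by depth bin have exact binomial intervals of the same kind. A pool under 3 UMIs was entered at 3 UMIs. Genes with a mean of at least 50 CPM over both pools were kept, and 1.5-fold was counted as higher or lower. The 28 gene lists held 314 symbols, all found, and of the 1 symbol on more than 1 row the first was used. The genes named were, among kept genes that are not mitochondrially encoded, the top 15 and bottom 15 by ratio, and genes of the lists. The members, lists and settings were chosen with earlier results of these data known. Thinning used seed 1. The other settings tried were deep spots of 2000 to below 4000 UMIs, leaving out spots under 500 UMIs, equal weight per spot, other totals and factors, other filters, and thinning to 250 or 1000 UMIs.

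Tested on simulated data with these depths, the 95% interval held the true ratio for 95.3% of 2139 genes. The simulated pools were Poisson counts with no variation between spots, so this checks the calculation only. Scaling factors came from DESeq2 1.42.0 and edgeR 4.0.16 in R 4.3.3. The rest was computed in Python 3.11.15 with SciPy 1.17.1, NumPy 2.4.6 and pandas 2.3.3, and drawn with matplotlib 3.10.9.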

Additional observations from a re-analysis of the deposited data

Results flagged for a closer look

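Gene lists in the least deep 19.2% of spots ran in opposite directions at days 1 and 3, judged by 1 section each, and the difference between the days was not tested. At day 3 the log2 ratio of least deep to other spots was -0.84 for leukocyte genes and -1.01 for monocyte/macrophage genes, where day 1 had 1.39 and 1.46. Fast myofibre genes had 0.98 at day 3 and -0.83 at day 1, and glycolytic genes 0.68 and -0.75. The least deep spots of day 3 reached 8741 UMIs and those of day 1 at most 1996, so the groups compared differ in depth as well as in day.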

How the results depend on the processing

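All values here are log2 ratios of shallow to deep CPM or counts of genes at least 1.5-fold higher and lower, which were 867 and 357 as first given. Against only the deep spots of 2000 to below 4000 UMIs they were 163 and 128, with 0.43 for monocyte/macrophage, -0.31 for fast myofibre, -0.14 for mitochondrially encoded and 1.65 for ribosomal RNA overlap genes, and the sign changed for slow myofibre (0.055), fibroblast (-0.13), endothelial (-0.17) and Schwann cell genes (-1.50). It changed as well for adipocyte (-0.42), satellite cell and myoblast (-0.15), cell cycle (-0.15), long muscle transcript (0.069) and ribosomal protein genes (0.00062), so that 19 of 28 lists had the same sign. Leaving out spots under 500 UMIs changed no sign, with 2.93 for ribosomal RNA overlap genes. Equal weight per spot gave 1.23, -0.80, -0.999 and -0.35 for monocyte/macrophage, fast myofibre, slow myofibre and mitochondrially encoded genes. A total that leaves out RNA of myofibres, mitochondria and haemoglobin gave 1.23, -1.06, -1.46 and -0.62 for the same lists, 2.83 for ribosomal RNA overlap genes and 565 genes lower. TMM and DESeq2 size factors alike gave 371 genes higher and 952 lower, with 0.90, -1.39, -1.79, -0.95 and 2.50 for those 5 lists, and 24 of 28 lists with the same sign. The exceptions, with TMM, were lymphocyte (-0.18), adipocyte (-0.085), satellite cell and myoblast (-0.32) and cell cycle genes (-0.15). A filter at 10 CPM gave 3604 and 806 genes and no filter 11395 and 980, where many genes rest on the floor of 3 UMIs. Chosen after seeing the data, a total without ribosomal RNA overlap genes and Lars2 gave -0.78 for fast myofibre, -0.34 for mitochondrially encoded and 3.11 for ribosomal RNA overlap genes. The rho of macrophage with fast myofibre share in shallow spots was -0.33 at 250 UMIs and -0.51 at 1000. The shallow pool of 513090 UMIs limits what can be said of genes below about 50 CPM. No paired analysis was possible because there was 1 section per day.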
